A study of Homo sapiens with 6 samples.

Results

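SYT4 and 9 other genes of the synaptotagmin family (SYT1, SYT2, SYT3, SYT5, SYT7, SYT9, SYT11, SYT12 and SYT17) were followed in RNAseq libraries of a parental and a drug-resistant prostate cancer cell line. They are 10 of the 58735 genes in the deposited tables and were matched by gene symbol. SYT4 was chosen on the comparison of the 2 cell lines given here, because it is much lower in the resistant line, and it lies on chromosome 18. Its values in that comparison are therefore given as a description, without a test. The other 9 genes were chosen as its paralogs, and were tested together with all other genes.

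Synaptotagmins are membrane proteins with a pair of cytoplasmic C2 domains, which in many members bind calcium and phospholipids. The proteins sit on secretory vesicles or the plasma membrane and act on SNARE proteins, the coiled proteins that pull vesicle and target membranes together, so that secretion follows a rise in calcium. SYT4 and its close relative SYT11 have a substitution in the first C2 domain that removes calcium binding there. SYT4 is known from neurons and endocrine cells, where it resides on the Golgi apparatus and on dense-core vesicles and its gene is induced by depolarisation.

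The parental line C4-2B is an established castration resistant human prostate cancer cell line, so all values describe epithelial tumour cells in culture. The resistant line RC4-2B is a subclone of it, obtained with cabazitaxel (CBZ), a taxane that binds tubulin and blocks mitosis. Cells that survived 72 h cycles of the drug were passed on to rising doses from 0.1 to 20 nM over 4 months. Each line gave 3 biological replicates, grown with 10% FBS for 72 h with no drug named for that time. RC4-2B is the product of a single selection, so its 3 libraries replicate that line and not the selection.

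SYT4 (ENSG00000132872) occupies bases 43267878 to 43277650 of chromosome 18 on the minus strand (GRCh38), and its canonical transcript in GENCODE release 44 has 4 exons. No exon of another annotated gene overlaps the exons of SYT4. RefSeq promoter windows, which run from 250 bases before the transcription start to 50 bases after it, were at hand for 7 of the 10 genes. Those of SYT4 (chr18:43277441-43277740, minus strand) and of SYT11 (chr1:155859317-155859616, plus strand) are printed 5′ to 3′ (GRCh38.p14), because SYT4 is the gene that was lower and SYT11 its closest relative in protein type. Capitals mark half-sites of the cyclic AMP response element, searched as TGACG and, for the other strand, CGTCA.
SYT4: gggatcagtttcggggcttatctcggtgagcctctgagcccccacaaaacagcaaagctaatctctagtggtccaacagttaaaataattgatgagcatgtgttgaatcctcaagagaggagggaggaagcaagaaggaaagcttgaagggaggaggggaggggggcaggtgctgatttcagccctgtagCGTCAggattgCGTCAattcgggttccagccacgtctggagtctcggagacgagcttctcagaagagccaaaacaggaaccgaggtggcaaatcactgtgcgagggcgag
SYT11: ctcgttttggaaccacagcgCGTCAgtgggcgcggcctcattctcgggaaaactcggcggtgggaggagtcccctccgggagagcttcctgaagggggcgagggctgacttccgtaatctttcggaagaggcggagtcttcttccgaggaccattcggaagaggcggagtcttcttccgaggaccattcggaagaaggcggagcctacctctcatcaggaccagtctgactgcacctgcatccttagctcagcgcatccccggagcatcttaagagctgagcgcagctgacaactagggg
The SYT4 window holds 2 half-sites and the SYT11 window holds 1. Of 35116 windows of the same length, 24.6% hold at least 1 half-site and 6.02% hold at least 2. The palindromic E-box CACGTG, present in 7.26% of all windows, and the TATA box TATAAA, present in 11.5% on either strand, were found in neither. The SYT4 window has a GC content of 53.3% with 11 CpG dinucleotides and the SYT11 window 60.0% with 22, against medians of 58.7% and 14. These letter matches are descriptions of the windows and not measured sites.

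The libraries held 15707134 to 18052517 counts on genes, so that 3 counts, the upper limit that a count of 0 allows, correspond to 0.170 to 0.188 CPM, the read count scaled to the size of the library. RC4-2B replicate 2 stood apart from its group. The log2 difference between 2 libraries had an SD across genes of 0.168 to 0.222 among the C4-2B pairs and of 0.247 between RC4-2B replicates 1 and 3, but of 0.632 and 0.556 for the pairs with RC4-2B replicate 2. Its difference from replicate 1 followed the GC content of the transcripts across genes (Spearman rho -0.75, genes are not independent replicates). All 9 prostate luminal markers were measurable and their summed FPKM (reads scaled to gene length and library total) was 638 to 658 in C4-2B and 434 to 541 in RC4-2B. Of the 9, 2 were lower in RC4-2B by edgeR's test, against 0.903% of all tested genes. An unadjusted p-value under 0.05 was found for 4, and DESeq2 called 3. Without RC4-2B replicate 2, 3 were lower, against 6.02% of all tested genes. What part these differences have in the results on SYT4 was not tested. Of 12 markers of basal, immune, endothelial and stromal cells, 8 had at most 3 counts in every library, and 6 of these, KRT5, TP63, PECAM1, COL1A2 and DCN among them, had 0. The others reached 585 (COL1A1), 143 (VWF), 52 (PDGFRB) and 17 (KRT14) counts in a library. Of the 3 tested, COL1A1, VWF and PDGFRB, none passed edgeR's threshold and 1 had an unadjusted p-value under 0.05. DESeq2 called 1, VWF (adjusted p = 0.016), which was lower in RC4-2B (edgeR log2 fold change -0.84). The sum over the 12 markers was 3.03 to 3.69 FPKM in C4-2B and 2.95 to 4.37 FPKM in RC4-2B. Of 7 neuroendocrine markers, INSM1 and NEUROD1 had 0 counts throughout, while ENO2 and SYP reached 141 and 44 counts in a library. Neither of these 2, the only ones tested, passed the threshold (0 at an unadjusted p-value under 0.05 and 0 by DESeq2). The sums over the 7 markers were 1.78 to 2.05 FPKM in C4-2B and 1.52 to 2.13 FPKM in RC4-2B. Across the 15054 genes tested by edgeR's quasi-likelihood test, 1.98% had an adjusted p-value under 0.05. An unadjusted p-value under 0.05 was seen for 3220 of them, and DESeq2 called 500 genes higher and 402 lower in RC4-2B.

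SYT4 was among the more abundant messages of C4-2B and a weak one in RC4-2B. It had 5203, 5503 and 5283 counts in the C4-2B libraries and 111, 255 and 132 counts in the RC4-2B libraries. Per gene length this is 62.6, 62.6 and 61.1 FPKM in C4-2B and 1.40, 3.07 and 1.58 FPKM in RC4-2B. The C4-2B libraries lay close together, all RC4-2B libraries were far below them, and RC4-2B replicate 2 was the highest of the resistant libraries. Among the 15054 tested genes ordered by FPKM, SYT4 stood at rank 679, 640 and 649 in C4-2B and at rank 10820, 8367 and 10446 in RC4-2B.

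The mean level of SYT4 in C4-2B was 308 ± 5.95 CPM (SD, n = 3), that in RC4-2B was 9.74 ± 4.17 CPM (SD, n = 3), a ratio of 31.6. On the FPKM scale the means were 62.1 ± 0.836 and 2.02 ± 0.914 (SD, n = 3), a ratio of 30.8. The fitted log2 fold change was -4.98 with a standard error of 0.28, and -5.39 with a standard error of 0.11 when RC4-2B replicate 2 was left out. After a correction for GC content the log2 fold change was -5.21 and RC4-2B replicate 2 was at 11.5 CPM, still above the 7.34 and 7.47 CPM of the other RC4-2B libraries. The transcript of SYT4 has a GC content of 37.9%, against a median of 48.2% among the tested genes. All RC4-2B libraries were well above the 3-count limit, so SYT4 was still detected in the resistant line. In bulk RNA, fewer cells with SYT4 message and less SYT4 message per cell cannot be told apart.

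SYT7, a high-affinity calcium sensor of slower vesicle release and of lysosome exocytosis, was the only other family member with more than trace levels. Its 771, 837 and 963 counts in C4-2B and 772, 716 and 892 counts in RC4-2B gave 6.91, 7.10 and 8.31 FPKM against 7.25, 6.42 and 7.96 FPKM. The groups overlapped. The means were 7.44 ± 0.758 and 7.21 ± 0.773 FPKM (SD, n = 3). The log2 fold change of SYT7 was -0.07 with a standard error of 0.14 (edgeR adjusted p = 0.780), and it was 0.23 after the GC correction, so that no direction can be given. The SYT7 transcript has a GC content of 60.0%.

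**Figure D1:**
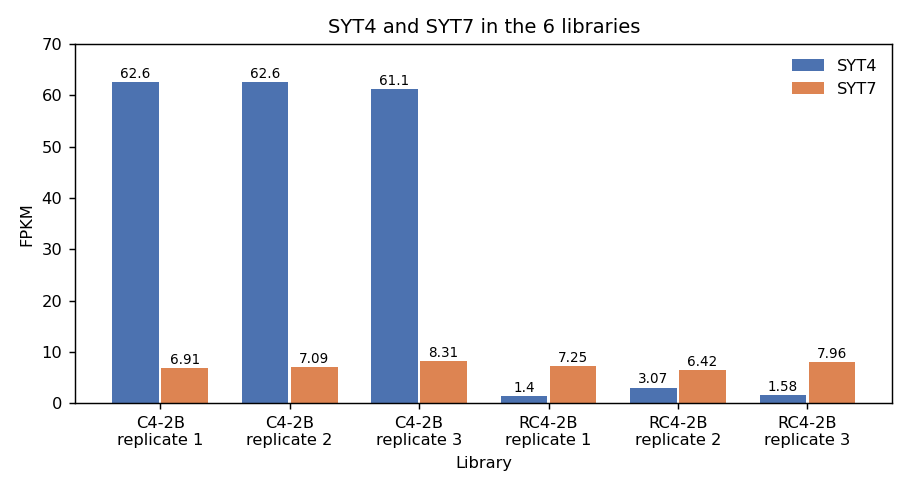
FPKM of SYT4 (blue) and SYT7 (orange) in each of the 6 libraries, 1 bar per gene and library with its value above it. SYT4 is the taller bar in the 3 C4-2B libraries (61.1 to 62.6 FPKM) and the shorter in the 3 RC4-2B libraries (1.40 to 3.07 FPKM), beside SYT7 at 6.42 to 8.31 FPKM.

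The order of the 2 genes was opposite in the 2 lines. The ratio of SYT4 to SYT7 in FPKM was 9.05, 8.82 and 7.36 in the C4-2B libraries and 0.193, 0.478 and 0.199 in the RC4-2B libraries. Every C4-2B library thus had more SYT4 than SYT7 message per length and every RC4-2B library had less. This order rests on the value that chose SYT4 and is a description. The summed FPKM of the 10 genes was 69.9 ± 0.115 in C4-2B and 9.73 ± 0.380 in RC4-2B (SD, n = 3). The sum over the 9 paralogs was 7.83 ± 0.725 and 7.72 ± 0.812, with overlapping groups. SYT4 made up 89.4%, 89.4% and 87.6% of the family sum in the C4-2B libraries and 15.1%, 31.0% and 15.8% in the RC4-2B libraries.

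The remaining 8 genes were present at trace levels, with at most 26 counts in any library and FPKM values from 0 to 0.251. Their sum was 0.392 ± 0.114 FPKM in C4-2B and 0.508 ± 0.122 FPKM in RC4-2B (SD, n = 3). Only SYT17 among them passed the filter on low counts, so 3 of the 10 family members were tested and 7 were not. Neither of the 2 tested paralogs passed the threshold, against 1.98% of all tested genes, and neither did so with DESeq2 (adjusted p = 0.825 for SYT7 and 0.377 for SYT17). The counts of 4 members (SYT3, SYT4, SYT7 and SYT17) exceeded 3 in all 6 libraries. At this depth only large changes of the others could have been seen.

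**Figure D2:**
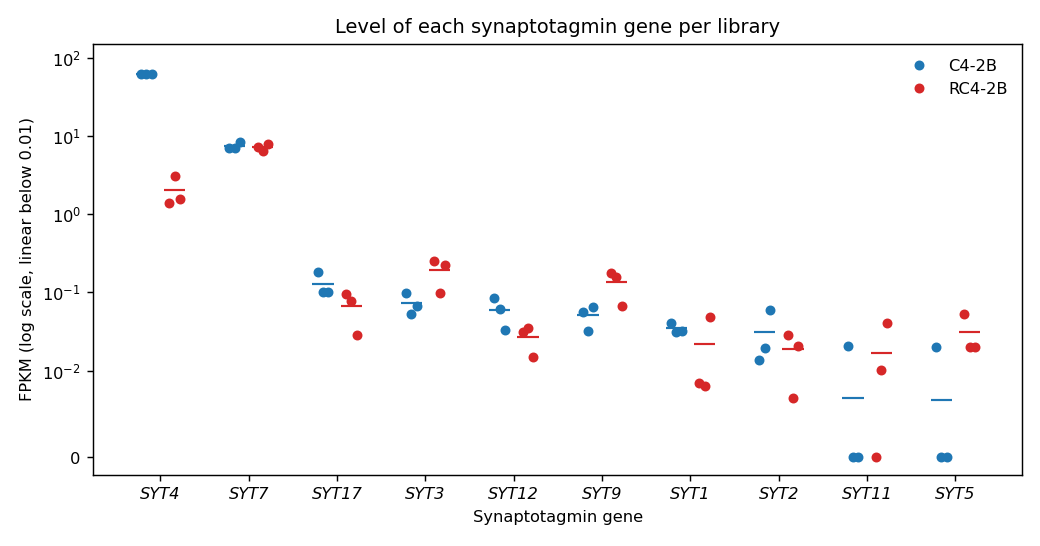
FPKM of the 10 genes in the 3 C4-2B (blue) and 3 RC4-2B (red) libraries, ordered by their mean in C4-2B. Points are libraries, horizontal lines are means, and the axis is logarithmic above 0.01 and linear below. SYT4 and SYT7 stand above 1 FPKM in all libraries, and the other 8 genes stay at or under 0.251.

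SYT17, an unusual member without a membrane-spanning region, had 26, 15 and 15 counts in C4-2B and 13, 11 and 4 counts in RC4-2B. Its CPM values did not overlap between the groups, the lowest C4-2B library being at 0.849 and the highest RC4-2B library at 0.813. The log2 fold change was -0.95 with a standard error of 0.49 (edgeR adjusted p = 0.283) and did not pass the threshold. CPM values without overlap were seen in 2 of the 3 tested members, SYT4 and SYT17, and in 34.1% of all tested genes. SYT4 is in this count by its choice.

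Among the members that act as fast calcium sensors of transmitter release, SYT1 had 5, 4 and 4 counts in C4-2B against 1, 1 and 6 in RC4-2B. SYT2 had 2, 3 and 9 counts and then 4, 1 and 3. Both sets of groups overlapped. SYT9, which serves the same role in some neurons and endocrine cells, had 5, 3 and 6 counts in C4-2B against 15, 14 and 6 in RC4-2B. The CPM values of SYT9 did not overlap, though its lowest RC4-2B library, at 0.353, was only just above the highest C4-2B library, at 0.342. SYT5, found on secretory granules, had 2, 0 and 0 counts and then 5, 2 and 2.

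SYT3, a high-affinity calcium sensor of the plasma membrane, had 7, 4 and 5 counts in C4-2B against 17, 7 and 16 in RC4-2B. RC4-2B replicates 1 and 3 were higher than all C4-2B libraries, and replicate 2 was within their range. Mean CPM was 0.310 ± 0.0980 in the parental line and 0.801 ± 0.353 in the resistant line (SD, n = 3). Without the filter on low counts the log2 fold change was 1.35 with a standard error of 0.57 (edgeR adjusted p = 0.20). Without RC4-2B replicate 2 the gene passed the filter and the threshold, at a log2 fold change of 1.68 ± 0.50 (standard error) (edgeR adjusted p = 0.0387). In that fit 12.5% of 15378 tested genes passed, 6.5% higher and 6.02% lower in RC4-2B. The call therefore depends on leaving out 1 library, and rests on fewer than 20 counts per library. SYT3 did not enter the GC-corrected fits, which kept the genes that pass the filter over all 6 libraries.

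The members that do not bind calcium in the usual way were also low. SYT11 had 2, 0 and 0 counts in C4-2B against 0, 1 and 4 in RC4-2B, so this relative of SYT4 was at or near 0 in both lines. SYT12 had 17, 13 and 7 counts in C4-2B against 6, 7 and 3 in RC4-2B, and without the filter its log2 fold change was -1.16 with a standard error of 0.58 (edgeR adjusted p = 0.316). With no filter, none of the 7 untested members passed the threshold of edgeR's test, and 2 of them, SYT3 and SYT9, had an unadjusted p-value under 0.05. The share of all genes under that unadjusted p-value in this fit is not given here. Among 10 members, 5 share exon bases with another annotated gene in GENCODE release 44. These are SYT1, SYT2, SYT7, SYT9 and SYT17, with SYT2 sharing 2111 bases with PPP1R12B on the opposite strand. The treatment of strand in the counting is not given in the sources used here. The small counts of SYT1, SYT2, SYT9 and SYT17 may therefore hold reads of genes on the opposite strand. SYT7, with 716 to 963 counts, shares 49 bases with a gene on its own strand. SYT17 also shares bases with a gene on its own strand.

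Of 8 further synaptotagmins (SYT6, SYT8, SYT10, SYT13, SYT14, SYT15, SYT15B and SYT16), 7 were matched by symbol, SYT15B not being among them, and only SYT14 and SYT15 were tested and neither passed, with 0 at an unadjusted p-value under 0.05 in edgeR's test and 0 called by DESeq2. Their log2 fold changes were -0.70 (standard error 0.62, edgeR adjusted p = 0.499) and -0.19 (standard error 0.53, adjusted p = 0.844). Of the others, 3 had 0 counts in every library. SYT15, the most abundant, had a mean of 0.0674 FPKM in C4-2B and 0.0599 FPKM in RC4-2B.

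A further list held 24 synaptotagmin-like, extended synaptotagmin, double C2, RPH3A, MCTP, RIM, UNC13 and CADPS genes. Not all of them encode C2 domains, RPH3AL being an exception. Of these, 17 were tested, 3 rose in RC4-2B, none fell and 14 did not pass the threshold, against 1.08% of all tested genes higher and 0.903% lower. These 17 genes had a median log2 fold change of 0.17, beside 0.01 for all tested genes. The abundant ESYT1, which tethers the endoplasmic reticulum to the plasma membrane, had 32.7 ± 0.417 FPKM in C4-2B and 29.3 ± 1.35 FPKM in RC4-2B (SD, n = 3, edgeR adjusted p = 0.291).

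SYTL2, a RAB27 effector that docks secretory granules, had 37.4, 47.3 and 43.2 CPM in C4-2B against 93.0, 108 and 81.3 CPM in RC4-2B. The groups did not overlap, and the log2 fold change was 1.14 with a standard error of 0.15 (edgeR adjusted p = 0.00961). RIMS1, an active-zone scaffold that binds RAB3, had 11.1, 14.9 and 17.5 CPM in C4-2B against 26.5, 35.0 and 28.5 CPM in RC4-2B. Its log2 fold change was 1.05 with a standard error of 0.20 (adjusted p = 0.0362). RIMS3, a short RIM protein with a single C2 domain, had 2.27, 3.11 and 3.30 CPM against 6.88, 6.39 and 5.41 CPM. Its log2 fold change was 1.10 with a standard error of 0.22 (adjusted p = 0.0482). The 3 genes were higher in every RC4-2B library than in any C4-2B library. The calls did not all hold with 1 library left out. Fits without C4-2B replicate 1, 2 or 3 called 13, 19 and 20 genes higher and 31, 38 and 36 lower. Those without RC4-2B replicate 1 or 3 called 252 and 29 higher and 222 and 49 lower. With all 6 libraries the numbers were 162 and 136. The adjusted p-value of SYTL2 was 0.0873 without C4-2B replicate 1 and 0.0771 without C4-2B replicate 3. For RIMS1 it was 0.174, 0.177 and 0.0972 on leaving out C4-2B replicate 1, 2 or 3, and 0.109 on leaving out RC4-2B replicate 3. For RIMS3 it was 0.233, 0.197 and 0.151 on leaving out C4-2B replicate 1, 2 or 3, and 0.0612 and 0.101 on leaving out RC4-2B replicate 1 or 3. The 3 directions held in each case. Without RC4-2B replicate 2, where 6.5% of all tested genes were higher and 6.02% lower, the 3 calls held and SYTL1, a further RAB27 effector, fell (log2 fold change -0.34, adjusted p = 0.0397).

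Of 37 SNARE proteins, the machinery of membrane fusion, 33 were tested and none passed edgeR's threshold, against 1.98% of all tested genes. An unadjusted p-value under 0.05 in edgeR's test was found for 5, beside 3220 of all 15054 tested genes. DESeq2 called 1 (VAMP7), beside 500 genes higher and 402 lower over all genes. The median log2 fold change of the 33 was 0.12. VAMP8, a SNARE of endosomes and secretory granules and the most abundant of the list, had 34.6 ± 0.329 FPKM in C4-2B and 34.5 ± 3.40 FPKM in RC4-2B (SD, n = 3). SNAP25, the neuronal plasma membrane SNARE, named after its values were seen, had 0 counts in all 6 libraries. Without RC4-2B replicate 2, 3 of 33 tested SNARE genes passed the threshold and rose, beside 6.5% of all tested genes in that fit. They were VAMP7 (log2 fold change 0.38, adjusted p = 0.00973), STX3 (0.29, adjusted p = 0.0411) and STX8 (0.44, adjusted p = 0.0416).

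Of 20 SNARE regulators, 17 were tested, 1 rose and 16 did not pass, against 1.08% of all tested genes higher, with a median log2 fold change of 0.00. STXBP4, a binding partner of syntaxin 4, rose from 12.2, 12.6 and 16.6 CPM in C4-2B to 25.0, 32.9 and 26.6 CPM in RC4-2B. The groups did not overlap, and the log2 fold change was 1.03 with a standard error of 0.18 (edgeR adjusted p = 0.0284). Leaving out C4-2B replicate 1, 2 or 3 gave adjusted p-values of 0.188, 0.171 and 0.0756, and leaving out RC4-2B replicate 3 gave 0.0973. Over all genes these fits called 13, 19, 20 and 29 genes higher, beside 162 with all 6 libraries. NSF, the ATPase that takes SNARE complexes apart and the most abundant of the list, had 14.9 ± 0.606 FPKM in C4-2B and 22.6 ± 5.33 FPKM in RC4-2B (SD, n = 3, adjusted p = 0.101). Among the regulators that passed without RC4-2B replicate 2, where 12.5% of all tested genes did, NSF (log2 fold change 0.38, adjusted p = 0.00794) and STXBP4 rose, and STXBP5 (-0.48, adjusted p = 0.0321) and STXBP5L (-0.45, adjusted p = 0.0135) fell.

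No vesicle membrane or dense-core vesicle gene passed edgeR's threshold, against 1.98% of all tested genes. Over all 15054 genes tested by edgeR, 3220 had an unadjusted p-value under 0.05 in edgeR's test. DESeq2, with its own filter, called 500 genes higher and 402 lower. Among 31 synaptic vesicle membrane proteins, 18 were tested with a median log2 fold change of -0.08, and 2 had an unadjusted p-value under 0.05 in edgeR's test, with 0 called by DESeq2. SYNGR2, a widely expressed synaptogyrin and the most abundant, had 101 ± 8.46 FPKM in C4-2B and 82.6 ± 20.7 FPKM in RC4-2B (SD, n = 3, adjusted p = 0.360). Among 26 genes of dense-core vesicle cargo and transport, 12 were tested with a median of 0.08, and 2 had an unadjusted p-value under 0.05 in edgeR's test, with KIF1B the 1 gene called by DESeq2. KIF5B, a conventional kinesin and the most abundant, had 51.8 ± 4.86 FPKM and 71.9 ± 24.5 FPKM (SD, n = 3, adjusted p = 0.247). KIF1A, a kinesin that carries dense-core vesicles in neurons and was named after its values were seen, had 10.4 ± 0.280 FPKM and 10.5 ± 2.07 FPKM (SD, n = 3, adjusted p = 0.99). Without RC4-2B replicate 2, PCSK1N (log2 fold change 1.13, adjusted p = 4.4e-05), which encodes an inhibitor of a prohormone convertase, and KIF1B (0.42, adjusted p = 0.0102) passed and rose, beside 6.5% of all tested genes in that fit.

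**Figure D3:**
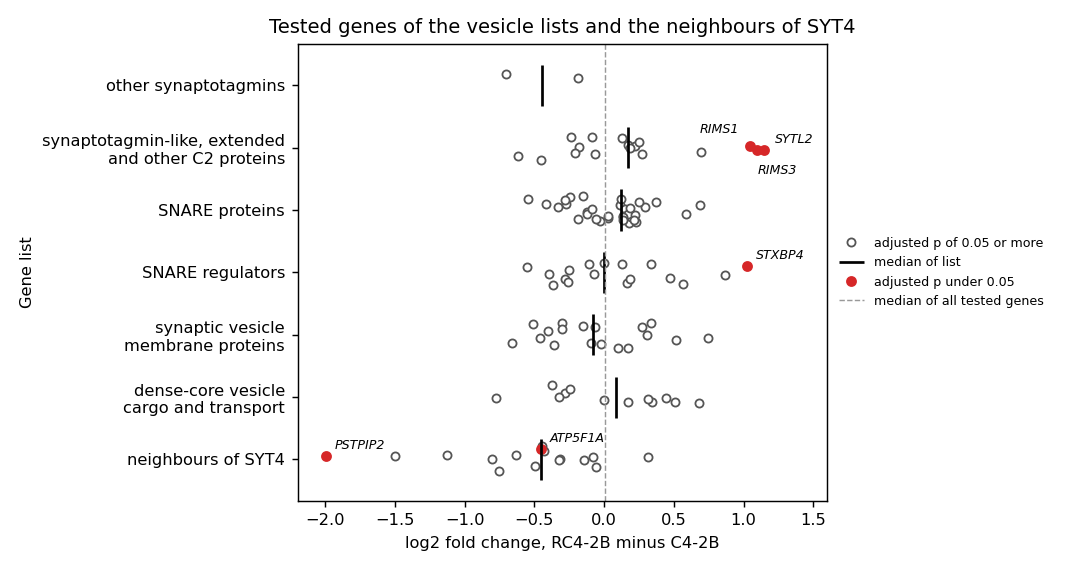
Fitted log2 fold change (RC4-2B minus C4-2B) of each tested gene in 6 gene lists and among the neighbours of SYT4, 1 point per gene, with vertical jitter only to separate points. Filled red points passed an adjusted p-value of 0.05, black bars are list medians and the dashed line is the median of all tested genes (0.01). The red points are RIMS1, RIMS3, SYTL2 and STXBP4 near 1 and PSTPIP2 and ATP5F1A below 0.

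SYT4 had no tested neighbour close by on chromosome 18, since no other tested gene starts within 1 Mb of it. Within 5 Mb, 16 genes were tested, of which 15 had a log2 fold change below 0, 2 fell, none rose and 14 did not pass, against 0.903% of all tested genes lower. Their median log2 fold change was -0.45. The 230 tested genes of the whole chromosome had a median of -0.18, with 4 higher and 16 lower. Over all tested genes, 1.08% were higher and 0.903% lower. The 230 include SYT4, by its choice, and the neighbours. The neighbours ranged from -2.0 to 0.31, beside -4.98 for SYT4. PIK3C3, the lipid kinase of autophagosome formation, starts at -1313 kb (its start coordinate minus that of SYT4) and its log2 fold change was -0.33 with a standard error of 0.17 (edgeR adjusted p = 0.296). The next on that side, AC016205.1 at -4061 kb, had 0.31 with a standard error of 0.27 (adjusted p = 0.485). On the other side, AC120049.1 at 1409 kb had -0.81 with a standard error of 0.31 (adjusted p = 0.195), and SETBP1, a chromatin-associated protein gene at 1412 kb, had -0.49 with a standard error of 0.21 (adjusted p = 0.222).

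PSTPIP2, an adaptor of membrane and actin at 2716 kb, had 3.16, 3.40 and 4.90 CPM in C4-2B against 1.00, 0.855 and 0.999 CPM in RC4-2B. Its log2 fold change was -2.0 with a standard error of 0.28 (edgeR adjusted p = 0.0142). ATP5F1A, a subunit of mitochondrial ATP synthase at 2812 kb, had 1227, 1134 and 1168 CPM in C4-2B against 888, 873 and 811 CPM in RC4-2B. Its log2 fold change was -0.46 with a standard error of 0.09 (adjusted p = 0.0491). Both were lower in every RC4-2B library than in any C4-2B library. Without C4-2B replicate 1, 2 or 3 the adjusted p-value of PSTPIP2 was 0.0609, 0.0602 and 0.0779, and without RC4-2B replicate 3 it was 0.0638. That of ATP5F1A was 0.257, 0.214 and 0.207 on leaving out C4-2B replicate 1, 2 or 3, and 0.0545 and 0.147 on leaving out RC4-2B replicate 1 or 3. Over all genes the fits without C4-2B replicate 1, 2 or 3 called 31, 38 and 36 genes lower. Those without RC4-2B replicate 1 or 3 called 222 and 49 lower, beside 136 with all 6 libraries. Without RC4-2B replicate 2, 7 of the 16 neighbours passed and all 7 fell, beside 6.02% of all tested genes lower in that fit. PIK3C3 (log2 fold change -0.53, adjusted p = 0.00648) and SETBP1 (-0.75, adjusted p = 0.00196) were among the 7.

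**Figure D4:**
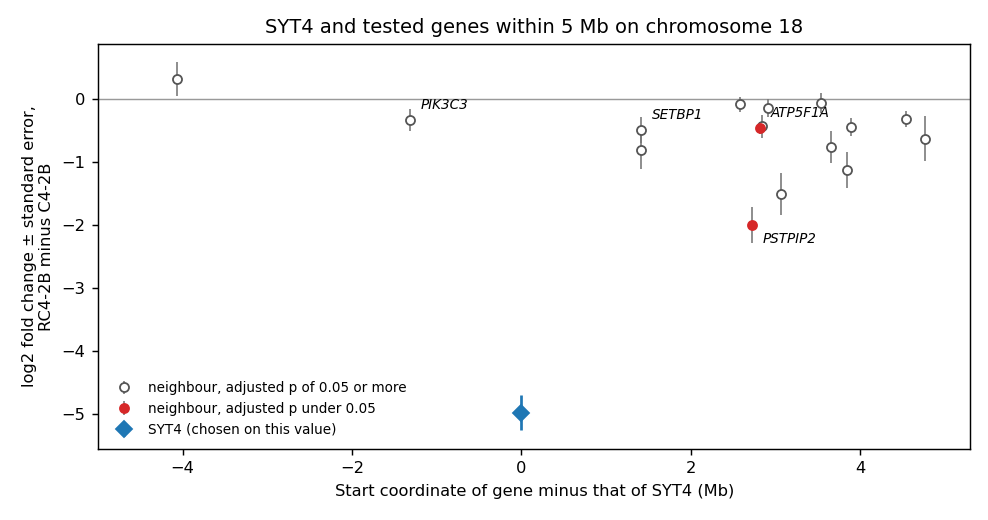
Fitted log2 fold change (RC4-2B minus C4-2B) with its standard error against the distance in Mb between the start coordinate of each gene and that of SYT4, for SYT4 (blue diamond, chosen on this value) and the 16 tested genes within 5 Mb. Red points passed an adjusted p-value of 0.05. The neighbours lie between -2.0 and 0.31, and SYT4 is at -4.98.

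The tested genes whose profile over the 6 libraries was most like that of SYT4 were found by the Euclidean distance between centred log2 CPM values (prior count 2). Among the 5 most alike were NOVA1 (distance 0.987), a neuronal splicing regulator, OBSL1 (1.53), a cytoskeletal adaptor, UNC5A (1.63), a netrin receptor, and CBLN2 (1.67), a synapse organiser. NOVA1 had 65, 89 and 146 counts in C4-2B against 1, 3 and 0 in RC4-2B. OBSL1 had 142, 100 and 85 counts and then 3, 2 and 4. UNC5A had 101, 87 and 132 counts and then 5, 4 and 4. CBLN2, which like SYT4 lies on chromosome 18, had 65, 101 and 194 counts and then 0, 0 and 1. Like SYT4, these genes were lower in every RC4-2B library, a pattern that their choice by likeness to SYT4 brings with it. Their log2 fold changes were -6.06 (NOVA1), -5.09 (OBSL1), -4.54 (UNC5A) and -7.99 (CBLN2), beside -4.98 for SYT4. At 0 to 5 counts in the RC4-2B libraries, the prior count of 2 weighs on these distances. Their counts in C4-2B, not scaled to gene length, were far below the 5203 to 5503 counts of SYT4. Because the likeness uses the same libraries, it is a description.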

How the data were processed

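RNAseq was carried out by the authors on 3 biological replicates of C4-2B and 3 of RC4-2B. Reads were mapped to GRCh38 with STAR. The annotation release, the counting program and whether it used strand are not given in the sources used here. The study names both 10% charcoal-stripped serum and 10% FBS for these cultures, and the labels name FBS. The deposited counts are raw whole-number counts per gene. The deposited FPKM values were computed by the authors from these counts, gene length and a library total, which worked back to 17878222 to 19817304. FPKM was used to compare levels between genes, to describe the level of a gene or a sum of genes in each line, and in the limma alternatives. The main tests used counts.

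Counts were analysed with R 4.3.3 and edgeR 4.0.16 (TMM scaling, filterByExpr with a minimum of 10 counts, glmQLFit and glmQLFTest with cell line as the only term, Benjamini-Hochberg adjustment over 15054 genes, threshold 0.05). Standard errors were derived from the F statistic and the log2 fold change. CPM values were TMM-scaled. Alternatives were other scalings, other filters, a block for the replicate number, leaving out each library, DESeq2 1.42.0, limma 3.58.1 on log2(FPKM + 1) and log2(FPKM + 0.1), other windows, and an offset for the GC content of the longest GENCODE release 44 transcript (lowess, span 0.2, known for 99.6% of tested genes).

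The members and lists were chosen with earlier results of these data known. Named were all members, the genes of each list that passed the threshold and its most abundant gene, the 2 nearest tested genes on each side of SYT4, neighbours that passed, and the 5 genes most like SYT4. Other genes were named after their values were seen. Some genes that this rule covers are not reported here. The replicate libraries of each line differed by more than sampling noise (chi-square per gene 3.17 to 58.7), so none was a copy. P-values measure the spread between these libraries.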

Additional observations from a re-analysis of the deposited data

How the results depend on the processing

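The log2 fold change of SYT4 ranged from -5.47 to -4.43 over 20 alternatives, from -5.39 to -4.78 with a library left out. SYT17 stayed below 0 (-1.30 to -0.08) and SYT7 changed sign (-0.15 to 0.23). No paralog was called except SYT3 without RC4-2B replicate 2. Changes of genes under about 3 counts per library are not detectable at this depth. The cause of the shifts in the counts below was not tested, except that fewer libraries or other genes enter some fits.

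The numbers of genes higher and lower in RC4-2B (162 and 136) were 500 and 402 with DESeq2, 604 and 646 without the filter, 657 and 490 with the GC correction, and 1024 and 1017 with the GC correction and RC4-2B replicate 2 left out, chosen after seeing the data. They were 46 and 58 with limma on log2(FPKM + 1), 39 and 47 on log2(FPKM + 0.1), and 13 and 23 and 13 and 33 for these 2 without the filter. With a library left out they ranged from 13 to 1000 and from 31 to 925, highest without RC4-2B replicate 2.

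The count of synaptotagmin-like and other C2 genes called (3) was 1 with limma on either scale, 0 with limma without the filter, 4 with edgeR without the filter, 5 with the GC correction and RC4-2B replicate 2 left out, and 0 to 4 with a library left out. SNARE proteins called (0) were 1 with DESeq2, without the filter, and with the GC correction and RC4-2B replicate 2 left out, and 0 to 3 with a library left out. SNARE regulators called (1) were 2 with DESeq2, 3 without the filter, 5 with the GC correction, also without RC4-2B replicate 2, 0 with limma, and 0 to 5 with a library left out. Dense-core vesicle genes called (0) were 1 with DESeq2 and without the filter, 3 with the GC correction, 4 with it and RC4-2B replicate 2 left out, and 0 to 2 with a library left out. Neighbours called (2 of 16) were 1 with upper-quartile scaling, 0 with limma and 7 with the GC correction. They were 11 with the GC correction and RC4-2B replicate 2 left out, and 0 to 7 with a library left out. In a window of 10 Mb, 5 of 54 tested genes were called, 41 were below 0 and the median log2 fold change was -0.26. Within 5 Mb the median was -0.45, with 15 of 16 below 0. Members called (0) were 0 to 1 with a library left out.

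Libraries of both lines carry numbers 1 to 3. Deviations of same-numbered libraries correlated at 0.31, 0.18 and -0.07, and not every library was most like its own number, so the numbers were not taken as a pairing. With the replicate block, 55 genes were higher and 74 lower, with 1 synaptotagmin-like or other C2 gene, 0 SNARE regulators and 1 neighbour called. With the GC correction and the replicate block, 642 were higher and 564 lower, with 4 SNARE regulators, 2 dense-core vesicle genes and 6 neighbours called.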
